A study of Mus musculus with 16 samples.

Results

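Immediate early genes are switched on within minutes of a stimulus, from transcription factors that are already in the cell, and their RNAs are short-lived. Many encode transcription factors themselves: FOS and FOSB pair with JUN or JUNB to form AP-1, and EGR1 and ATF3 bind DNA in other forms. Growth factors, cytokines, shear stress and the handling of tissue all induce them in endothelial cells (ECs), and HSPA1A and HSPA1B, the inducible HSP70 chaperones, are induced by heat and misfolded protein through the factor HSF1. In sorted cells their RNA level can therefore carry both the state of the tissue and the enzymatic digestion that frees the cells.

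The 10 genes described are Fos, Fosb, Jun, Junb, Egr1, Atf3, Ier2, Dusp1, Hspa1a and Hspa1b, chosen by gene name from the 43346 genes of the deposited table, where each name occurs on a row of its own. They were measured by RNA-seq in lung ECs of FVB mice. The 4 groups were Young Sham (2 months old, given PBS, n = 5), Young Bleo (2 months, bleomycin, n = 4), Aged Sham (18 months, PBS, n = 3) and Aged Bleo (18 months, bleomycin, n = 4), with bleomycin used to injure the lung and cause fibrosis. According to the study's methods all mice carried a Col1a1-GFP reporter, bleomycin or PBS went into the trachea about a month before the lungs were taken, the lungs were digested with Liberase in a warm water bath, and the sorted cells were positive for CD31 and negative for CD45, EpCAM and GFP. Every library thus went through the same kind of digestion, and no undigested sample was analysed here, so RNA present in the lung and RNA induced by handling cannot be told apart.

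Depth ranged from 20.9 to 71.0 M gene counts per library (M, mega-counts), and the members had from 84 counts (Hspa1a, lowest library) to 119790 counts (Jun, highest library), so the relative counting error was largest for Hspa1a. The endothelial markers Pecam1 and Cdh5 were at 66.6 to 152 and 67.6 to 111 FPKM (fragments per gene, corrected for gene length and sequencing depth). The summed FPKM of 10 endothelial markers was 2360 to 2607 in Young Sham, 2068 to 2227 in Aged Sham, 1571 to 2041 in Young Bleo and 1434 to 2056 in Aged Bleo. Markers of other cell types also differed between groups. The summed FPKM of 9 macrophage markers was 22.7 to 43.3 in Young Sham, 52.8 to 181 in Aged Sham, 152 to 445 in Young Bleo and 212 to 1558 in Aged Bleo, and none was at 0 throughout a group. Young Sham thus lay above all 11 other libraries in its endothelial sum and below all 11 in its macrophage sum. The called endothelial markers went both ways, with 1 of 10 higher and 1 lower in Aged Sham, and 2 higher and 2 lower in each of Young Bleo and Aged Bleo, against Young Sham. The summed FPKM of 6 platelet markers was 280 to 527 in Young Sham, 649 to 3473 in Aged Sham, 112 to 254 in Young Bleo and 66.5 to 497 in Aged Bleo. The sum of 5 mesothelial markers was 0.629 to 2.57 in Young Sham, where Wt1 was at 0 throughout, 4.56 to 14.65 in Aged Sham, 6.29 to 17.85 in Young Bleo and 1.26 to 7.79 in Aged Bleo. That of 5 erythroid markers was 30.02 to 160.3, 234 to 495, 148.5 to 622 and 124.5 to 414 in the same order. That of 6 pericyte and smooth muscle markers was 40.1 to 86.6, 26.5 to 41.6, 16.5 to 45.8 and 11.8 to 17.6. For 8 epithelial markers the sum was 70.5 to 579.5, 142.8 to 664.2, 156.8 to 560 and 170.2 to 435.9, again in this order. In bulk RNA fewer cells of a type and less RNA per cell cannot be told apart.

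The RefSeq promoters (build GRCm38.p6, 250 bases before to 50 bases after the start) of 8 of the 10 members were searched on both strands, because the members differ in the factors that switch them on. Egr1 and Ier2 had no entry. The cAMP response element TGACGTCA, a site of the CREB and ATF factors, was found in Dusp1, and in 2.03% of the 27025 genes with a promoter. The looser TGACNTCA, tried after the stricter motif had matched Dusp1 alone, was also found in Jun, at 45 bases before its start, and in 2708 of the 27025 genes. GAANNTTC, a pair of facing heat shock units that was also tried later, was found in Hspa1a, Hspa1b and Jun, and in 9.04% of genes. The matches are shown with the motif in capitals, as RefSeq gives them, each read 5′ to 3′ on the minus strand, on which all 4 genes lie:
Dusp1, chr17:26508599-26508624: tagggcgggTGACGTCAccgcccggt
Jun, chr4:95052251-95052276: gcctcggggTGACATCAtgggctatt
Jun, chr4:95052334-95052359: cccagagaaGAATCTTCtagggtgag
Hspa1a, chr17:34972244-34972269: aaactgctgGAAGATTCctggcccca
Hspa1b, chr17:34959326-34959351: aaactgctgGAAGATTCctggcccca
The Hspa1a and Hspa1b stretches were identical, 104 bases before each start. No member's window held the AP-1 site TGANTCA (8.97% of genes), the CArG box of serum response factor (1.81% of genes) or a heat shock element of 3 units (0.662% of genes), which says only that these letters were not in these windows.

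On the FPKM scale, which allows levels of different genes to be compared, the members spanned a wide range. Dusp1, a phosphatase that switches off MAP kinases, had the highest mean over the 16 libraries at 142 FPKM, followed by Jun at 140 and Ier2, a nuclear regulator, at 102. Junb and Fos followed at 57.0 and 56.0 FPKM, Egr1 at 15.0 and Atf3 at 6.47. Hspa1b, Fosb and Hspa1a were lowest at 1.86, 1.54 and 0.917 FPKM. Dusp1 and Jun were each above 99.2% of the 20380 genes tested, whereas Hspa1a was above 48.6%. The ranges over libraries overlapped for every pair of neighbours in this order. In counts scaled by DESeq2's size factors, the fold between the highest and the lowest library was largest for Fos (12.7) and Fosb (7.08). It was smallest for Ier2 (2.17), as the plot of all 10 genes shows.

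**Figure D1:**
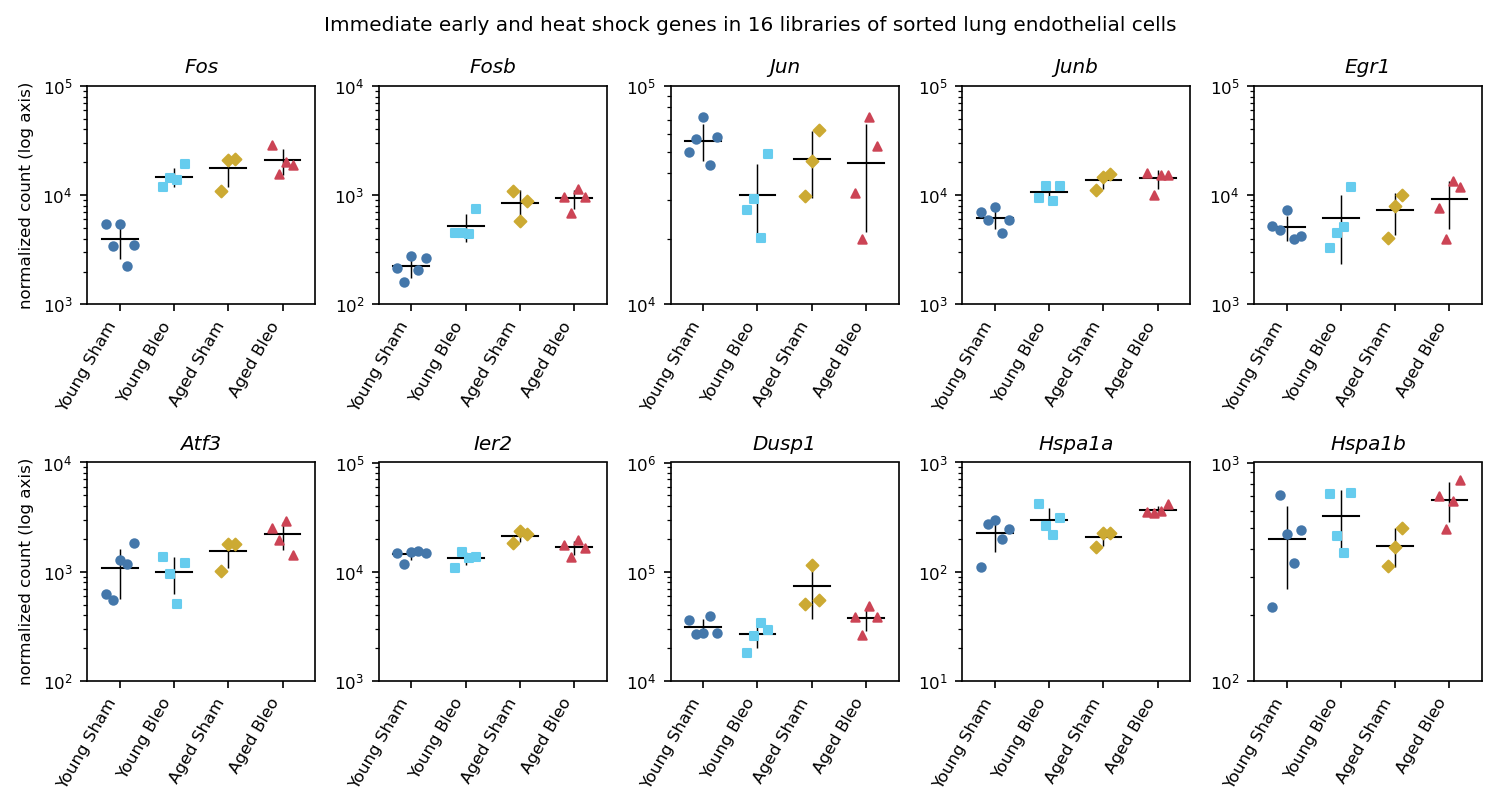
Normalized counts (log axis, with a range of its own in each panel) of the 10 genes in each library, by group; symbols are libraries, the horizontal bar is the group mean and the vertical bar is 1 SD. The 5 Young Sham libraries lie below all 11 others for Fos, Fosb and Junb, and Aged Sham replicate 14 stands highest for Dusp1.

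Fos (ENSMUSG00000021250, chr12:85473890-85477273), the AP-1 subunit that gives the family its name, was lowest in Young Sham. Its normalized counts, scaled by DESeq2's size factors, were 5459, 3419, 5399, 2248 and 3495 in Young Sham replicates 21 to 25. They were 12015, 14258, 13878 and 19176 in Young Bleo replicates 17 to 20. All 4 injured young libraries were above all 5 uninjured ones. Fos was 10964, 20899 and 21327 in Aged Sham replicates 13 to 15, and 28650, 15580, 20180 and 19098 in Aged Bleo replicates 1, 2, 3 and 5. The 3 groups other than Young Sham overlapped each other.

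Fosb (ENSMUSG00000003545, chr7:19302721-19310045), a close relative of Fos, had normalized counts of 213, 160, 279, 205 and 266 in Young Sham. It was 452, 449, 443 and 747 in Young Bleo, with replicate 20 apart from 3 nearly equal libraries. It was 1099, 577 and 878 in Aged Sham and 971, 684, 1132 and 972 in Aged Bleo. Young Sham again lay below every other library, as it did in the macrophage marker sum.

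Junb (ENSMUSG00000052837, chr8:84976909-84978748), which pairs with FOS proteins and can restrain JUN, had normalized counts of 7048, 5883, 7832, 4471 and 5925 in Young Sham. Young Bleo was at 9495, 12128, 8870 and 12062. Aged Sham was at 11084, 14793 and 15583, and Aged Bleo at 16121, 9996, 15464 and 15389. The highest Young Sham library was below the lowest of the other 11. Of all 18515 genes tested, 0.697% had all 5 Young Sham libraries below all 11 others.

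Age alone was addressed by comparing the sham groups, Aged Sham against Young Sham. A gene was called at a DESeq2 adjusted p of at most 0.05 (Wald test, Benjamini-Hochberg over all genes tested) and a log2 fold change of 0.5 or more in size. In this comparison 5 of the 10 members were called, all 5 higher in Aged Sham, where 3.36% of all genes were called and 2.24% were called higher. EdgeR called 4 of the 10, and 0.862% of all genes. The groups did not overlap for the same 5 members, against 4.95% of all genes with Aged Sham above Young Sham. The median log2 fold change was 0.55 over the members and 0.02 over all genes tested.

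Fos had the largest rise with age, at 2.15 on the log2 scale (SE 0.30, adjusted p = 1.44e-09; edgeR adjusted p = 0.00214), which is 4.43-fold. Fosb rose by 1.93 (SE 0.27, adjusted p = 1.43e-09; edgeR adjusted p = 0.00204) and Junb by 1.15 (SE 0.21, adjusted p = 1.6e-05; edgeR adjusted p = 0.0129). Each of these 3 calls was kept when any of the 16 libraries was left out, but the Junb call was lost with limma-trend on log2(FPKM + 0.1) (adjusted p = 0.052) and log2(FPKM + 1) (adjusted p = 0.0516). The macrophage marker sum was 52.8, 181 and 55.7 in Aged Sham replicates 13 to 15, against at most 43.3 in Young Sham, and 0 of 9 macrophage markers was called between the sham groups by DESeq2 or edgeR (6 and 4 of 9 at an unadjusted p under 0.05). Of other marker sets, 3 of 5 mesothelial, 2 of 5 erythroid, 5 of 6 platelet, 2 of 6 neutrophil, 1 of 7 lymphocyte and 1 of 6 fibroblast markers were called higher in Aged Sham by DESeq2, and 2 of 6 pericyte and smooth muscle markers lower. The mesothelial and erythroid sums of the sham groups did not overlap. The part of these cells, of macrophages or of endothelial content in the member values was not tested.

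Dusp1 (ENSMUSG00000024190, chr17:26505590-26508519) had normalized counts of 35891, 26743, 27494, 38979 and 27184 in Young Sham and 50122, 116206 and 54988 in Aged Sham. Its log2 fold change was 1.24 (SE 0.29, DESeq2 adjusted p = 0.00167, edgeR adjusted p = 0.0415), and limma voom did not call it (adjusted p = 0.0746). In the bleomycin groups Dusp1 was at 17869, 25999, 33813 and 29253 (Young Bleo) and 38391, 26498, 48358 and 38202 (Aged Bleo). Aged Sham replicate 14 was far above the other 15 libraries, and without it the log2 fold change was 0.75 and the call was lost (adjusted p = 0.11). The same library had the highest platelet marker sum, 3473, with 974 and 649 in replicates 13 and 15, and 5 of 6 platelet markers were called higher in Aged Sham. Its summed FPKM of 8 epithelial markers, 664, was also the highest of all libraries, with 331 and 143 in replicates 13 and 15. Between the sham groups 0 of 8 epithelial markers was called. Its macrophage sum (181) was the highest of the sham libraries. The part of platelet, epithelial or macrophage RNA in the Dusp1 level was not tested.

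Ier2 (ENSMUSG00000053560, chr8:84661331-84662852) had normalized counts of 14841, 11697, 15208, 15338 and 14932 in Young Sham and 18508, 23577 and 22029 in Aged Sham. It was higher in Aged Sham by 0.57 on the log2 scale (SE 0.15, DESeq2 adjusted p = 0.0102), but edgeR did not call it (adjusted p = 0.0901). Young Bleo, at 10856, 15285, 13461 and 13602, and Aged Bleo, at 17437, 13644, 19603 and 16660, both overlapped Young Sham. The call was also lost without Aged Sham replicate 14 (0.49, adjusted p = 0.121) or replicate 15 (0.55, adjusted p = 0.0596). Jun, Egr1, Atf3, Hspa1a and Hspa1b were not called with age, with log2 fold changes from -0.27 (Jun) to 0.53 (Egr1).

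Injury in young mice was examined in Young Bleo against Young Sham. Here 3 of the 10 members were called, all 3 higher after bleomycin, where 13.9% of all genes were called and 7.57% were called higher. EdgeR called the same 3 members, and 9.78% of all genes. The log2 fold change of Fos was 1.89 (SE 0.28, adjusted p = 3.3e-09; edgeR adjusted p = 0.0016), that of Fosb 1.23 (SE 0.25, adjusted p = 3.95e-05; edgeR adjusted p = 0.00589) and that of Junb 0.77 (SE 0.19, adjusted p = 0.00127; edgeR adjusted p = 0.0155). These were also the 3 members whose groups did not overlap, against 7.62% of all genes with Young Bleo above. In the same comparison 7 of 9 macrophage, 4 of 5 mesothelial, 1 of 6 neutrophil and 1 of 5 erythroid markers were called higher, and their part in these values was not tested. Young Bleo replicate 20, with the lowest macrophage sum of its group (152), had the highest Fos and Fosb counts of that group but not the highest Junb count (12062, beside 12128 in replicate 18). Over all 16 libraries, Aged Bleo replicate 1 had both the highest macrophage sum (1558) and the highest Fos count (28650).

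Jun (ENSMUSG00000052684, chr4:95049034-95052222), the main partner of FOS in AP-1, did not rise with it. Its normalized counts were 49621, 57062, 72098, 43647 and 58663 in Young Sham and 27110, 30299, 20050 and 48665 in Young Bleo. It was 31478, 45246 and 62869 in Aged Sham and 32424, 20012, 71865 and 53096 in Aged Bleo. Every group overlapped every other. The log2 fold change after bleomycin in young mice was -0.83 (95% interval from -1.48 to -0.19, adjusted p = 0.0658), short of a call, and it was called without Young Bleo replicate 20 or without Aged Bleo replicate 2 or 3. With only these 2 groups in the fit, Jun was also called lower, making 4 members called (-0.83, adjusted p = 0.00516). Reads of Junos, an antisense gene that overlaps Jun, cannot be told apart from those of Jun where strand was not used, and 694 to 7558 counts per library were assigned to Junos.

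**Figure D2:**
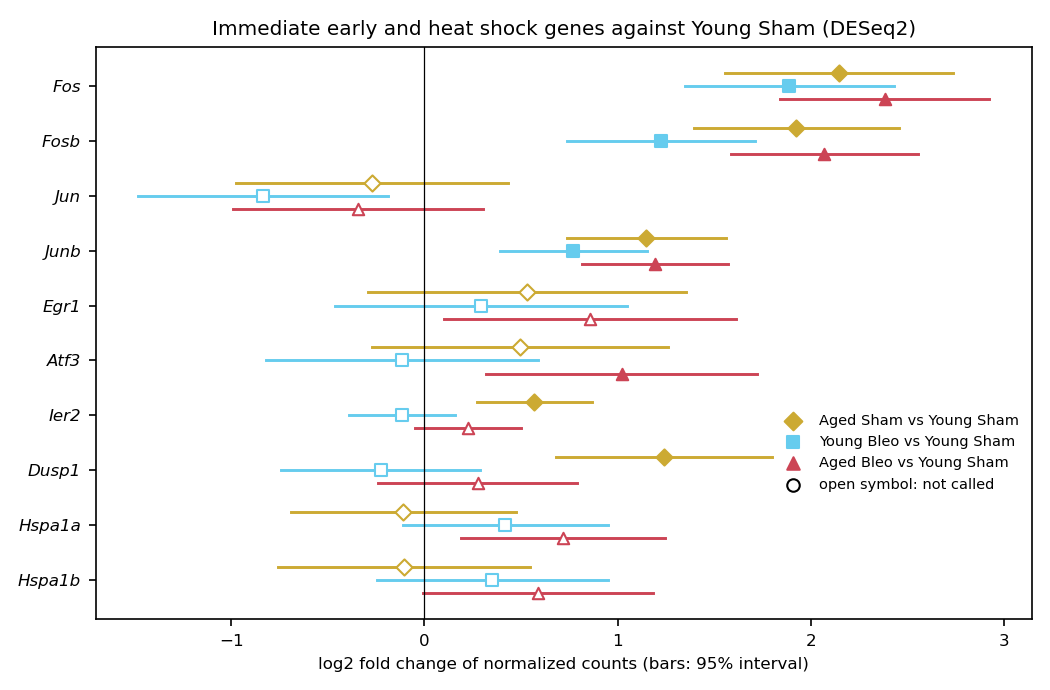
Log2 fold change of normalized counts against Young Sham for the 10 genes in the 3 other groups; bars are 95% intervals and filled symbols are called. Fos, Fosb and Junb lie to the right of 0 in all 3 comparisons, and Jun lies to the left without a call.

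The balance of FOS and JUN family RNA was therefore looked at within each library, a choice made after the values had been seen. The ratio of Fos to Jun on the FPKM scale was 0.149, 0.0812, 0.102, 0.0698 and 0.0808 in Young Sham replicates 21 to 25. It ranged from 0.381 to 1.20 in the other 11 libraries, where the group median was 0.619 (Young Bleo), 0.472 (Aged Sham) and 0.771 (Aged Bleo). The ratio of Junb to Jun was 0.175 to 0.246 in Young Sham and 0.373 to 0.866 elsewhere. Neither ratio overlapped between Young Sham and the rest. Such a ratio does not depend on the scaling between libraries. The ratios restate the counts above and carry no test of their own.

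**Figure D3:**
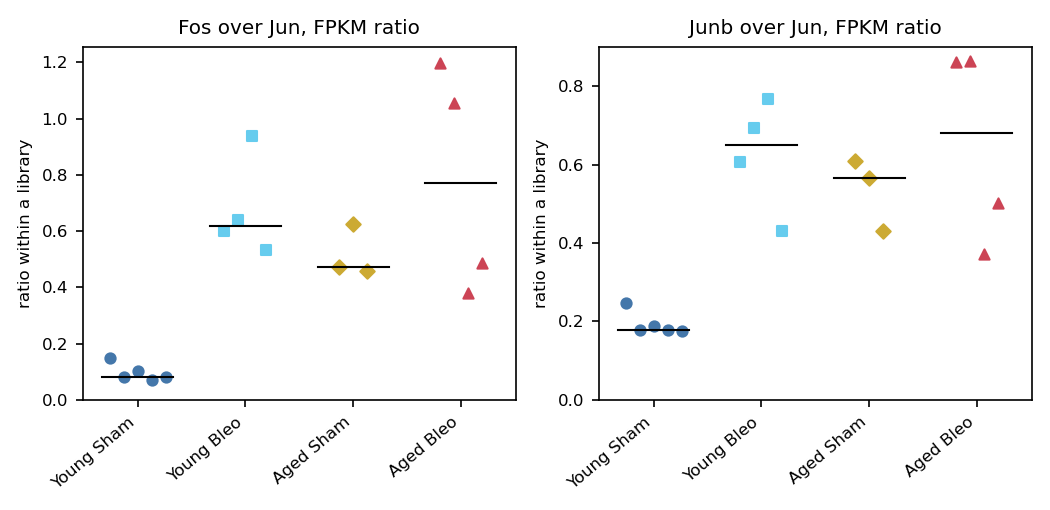
Ratio of FPKM values within each library, Fos to Jun (left) and Junb to Jun (right), by group; symbols are libraries and bars are group medians. Young Sham lies at 0.0698 to 0.149 and 0.175 to 0.246, below all other libraries in both panels.

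Aged Bleo was compared with Young Sham next, which combines age and injury. There were 4 members called, all 4 higher, where 9.73% of all genes were called and 6.58% were called higher. EdgeR called 3 of the 10, and 5.69% of all genes. Fos had its largest difference here, at 2.38 on the log2 scale (SE 0.28, adjusted p = 1.1e-14; edgeR adjusted p = 0.000503), beside 2.07 for Fosb (SE 0.25, adjusted p = 7.05e-14; edgeR adjusted p = 0.000503) and 1.19 for Junb (SE 0.19, adjusted p = 1.29e-07; edgeR adjusted p = 0.0023). With these, Fos, Fosb and Junb were called higher than Young Sham in all 3 comparisons, as were 0.562% of all genes. The 3 comparisons share the Young Sham libraries. In Aged Bleo 8 of 9 macrophage, 3 of 5 mesothelial and 2 of 6 neutrophil markers were called higher than in Young Sham, and their part was not tested here either. From 3 to 4 of the 5 mesothelial markers were thus called higher in each of the same 3 comparisons as Fos, Fosb and Junb.

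Atf3 (ENSMUSG00000026628, chr1:191170296-191218039), a stress-induced repressor of the ATF family, had normalized counts of 625, 548, 1284, 1170 and 1817 in Young Sham and 2531, 1970, 2893 and 1436 in Aged Bleo. Aged Sham was at 1017, 1806 and 1781. Aged Bleo replicate 5 lay within the Young Sham range. The log2 fold change was 1.02 (SE 0.36, DESeq2 adjusted p = 0.0432), edgeR did not call it (adjusted p = 0.096), and the call was lost without any 1 of 8 libraries (Aged Bleo 1, 2 and 3, Young Bleo 18, and Young Sham 21 to 24), with adjusted p up to 0.154. Atf3 was 1360, 951, 501 and 1200 in Young Bleo, all below Aged Bleo as for 2.8% of all genes, with a log2 fold change of 1.14 between the injured groups that was not called (SE 0.38, adjusted p = 0.12).

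**Figure D4:**
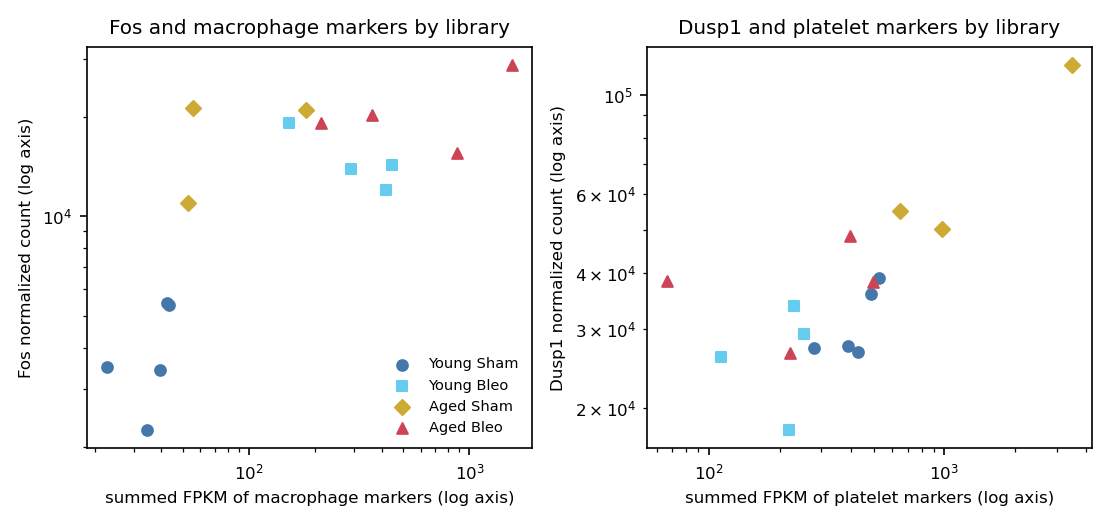
Left, Fos normalized count against the summed FPKM of 9 macrophage markers. Right, Dusp1 normalized count against the summed FPKM of 6 platelet markers (all axes log, 1 symbol per library). Aged Bleo replicate 1 is highest on both axes of the left panel (1558 and 28650) and Young Sham is lowest on both, while Aged Sham replicate 14 is highest on both axes of the right panel (3473 and 116206).

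The effect of injury in aged mice was taken from Aged Bleo against Aged Sham. Of the 10 members 1 was called, where 5.85% of all genes were called and 2.45% were called lower. EdgeR called 0 of the 10 (2 at an unadjusted p under 0.05, and 4 with DESeq2), and 0.797% of all genes. Dusp1 was lower in all 4 Aged Bleo libraries than in any Aged Sham library, as were 6.14% of all genes, with a difference of -0.96 on the log2 scale (SE 0.30, DESeq2 adjusted p = 0.0275), and edgeR did not call it (adjusted p = 0.102). Without Aged Sham replicate 14 the log2 fold change was -0.47 (adjusted p = 0.321), and leaving out Aged Bleo replicate 1 or 2 also ended the call (adjusted p of 0.0807 and 0.0964), as did a fit of only the groups compared (adjusted p = 0.114). In this comparison 5 of 6 platelet markers were called lower. Fos, Fosb and Junb had log2 fold changes of 0.24, 0.14 and 0.04, with 95% intervals from -0.38 to 0.85, -0.40 to 0.69 and -0.39 to 0.47.

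The age dependence of the bleomycin response was tested with an interaction term, the log2 fold change in aged mice minus that in young mice. For Fos it was -1.65 (SE 0.42, DESeq2 adjusted p = 0.0324), and Fos was the 1 member called, where 0.378% of all genes were called. With edgeR, which called 0.00546% of all genes and 0 members (3 at an unadjusted p under 0.05), the adjusted p was 0.352, and the DESeq2 call was lost without any 1 of 9 libraries (Aged Bleo 2, 3 and 5, Aged Sham 14 and 15, Young Bleo 18 and 19, and Young Sham 22 and 25), with adjusted p up to 0.117. For the same difference 2 of 5 mesothelial markers and 1 of 6 fibroblast markers were called lower, as Fos was, and their part was not tested. The differences for Fosb and Junb were -1.08 (adjusted p = 0.258) and -0.73 (adjusted p = 0.41), not called. Between the injured groups, Aged Bleo against Young Bleo, 0 of 10 members was called by DESeq2 or by edgeR, where 0.99% of all genes were called by DESeq2 and 0.0437% by edgeR. At an unadjusted p under 0.05 there were 4 members by either tool, Atf3, Fosb, Ier2 and Junb in DESeq2. The log2 fold changes were positive for all 10, from 0.24 (Hspa1b) to 1.14 (Atf3), and Fosb was nearest to a call (0.84, SE 0.26, adjusted p = 0.0732), which it passed without Aged Bleo 2, Aged Sham 13 or 14, or Young Bleo 20.

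Egr1 (ENSMUSG00000038418), a zinc finger factor induced by growth factors and shear stress, was not called in any comparison. Its normalized counts were 5192, 4819, 7258, 3946 and 4239 in Young Sham and 3286, 4553, 5153 and 11973 in Young Bleo. They were 4072, 8004 and 9997 in Aged Sham and 7584, 3997, 13410 and 11903 in Aged Bleo. The libraries of each group other than Young Sham were spread over more than a doubling, and every group overlapped the others. The largest log2 fold change was 0.86 in Aged Bleo against Young Sham (95% interval from 0.10 to 1.61, adjusted p = 0.145).

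The chaperones Hspa1a (ENSMUSG00000091971, chr17:34969190-34972156) and Hspa1b (ENSMUSG00000090877, chr17:34956436-34959238) lie close together and are nearly identical. Of the 100-base windows of their transcripts, 47.1% of those of Hspa1a were found in Hspa1b and 49.9% of those of Hspa1b in Hspa1a, so the split of reads between them is uncertain. Gm20481, which overlaps Hspa1a, held 0.188 to 0.393 of the Hspa1a count within a library, and its normalized counts were 100 to 145 in Aged Bleo, above at most 81.6 in Young Sham and 74.9 in Aged Sham. Reads shared between these genes cannot be told apart where strand was not used. Hspa1a had normalized counts of 110, 274, 297, 200 and 244 in Young Sham, 413, 262, 215 and 310 in Young Bleo, 168, 226 and 228 in Aged Sham, and 353, 345, 361 and 419 in Aged Bleo. The Aged Bleo libraries were above all libraries of both sham groups, as they were for 5.82% of all genes against Young Sham and 5.94% against Aged Sham, and as they were in the macrophage marker sum. Hspa1b had 218, 713, 470, 346 and 492 in Young Sham, 715, 459, 387 and 725 in Young Bleo, 336, 410 and 503 in Aged Sham, and 701, 495, 670 and 829 in Aged Bleo, with overlap between all groups.

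Neither chaperone was called in any comparison. For Hspa1a, the log2 fold change was 0.72 in Aged Bleo relative to Young Sham (SE 0.27, adjusted p = 0.0628) and 0.83 relative to Aged Sham (SE 0.31, adjusted p = 0.087). The first became a call without Young Bleo replicate 17 or Young Sham replicate 23, and the other without Young Sham replicate 21 or with only the groups compared in the fit (0.82, adjusted p = 0.0252). With the counts of both genes summed, the corresponding values were 0.63 (SE 0.28, adjusted p = 0.136) and 0.74 (SE 0.32, adjusted p = 0.16). Hspa8, the constitutive HSP70, stood at 34.0 to 73.8 FPKM, and Hspa1a was 0.00979 to 0.0257 of it within a library.

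The members were then compared as deviations of log2 counts from their group means over the 16 libraries, so that group differences drop out. These correlations describe libraries that also differ in depth and cell content. Among the 8 immediate early members 26 of 28 pairs had a positive Pearson r, with a median of 0.404. The highest were Jun with Egr1 (0.875) and Fos with Junb (0.866), and the lowest was Fosb with Dusp1 (-0.128). Ier2 and Dusp1 had an r of 0.712. Hspa1a and Hspa1b had an r of 0.88 with each other, while their 16 pairs with the immediate early members had a median r of 0.135. The mean deviation of the 8 immediate early members was highest in Young Bleo replicate 20 (0.44, all 8 above their group mean) and lowest in Aged Bleo replicate 2 (-0.53, 0 of 8 above).

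Among 13764 other genes, the 5 whose deviations were most like the mean of the 8 immediate early members were Zfp64 (r = 0.918), Asb13 (0.91), Slc39a3 (0.91), Dlat (0.886) and Net1 (0.882). For the mean of Hspa1a and Hspa1b they were Gm20481 (0.912), which overlaps Hspa1a, and Dcp1a (0.843), Pi4k2a (0.831), Fgl2 (0.817) and Plekhb2 (0.817).

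Other immediate early genes were taken from a list of 43, of which 41 were tested in each pairwise comparison. In Aged Sham against Young Sham 3 were called higher (2 by edgeR) and 0 lower, where 2.24% of all genes were called higher. They were Maff, a small MAF factor (log2 fold change 1.32, DESeq2 adjusted p = 0.0179), Socs3, an inhibitor of cytokine signalling (1.26, adjusted p = 0.00233), and Zfp36, which speeds the decay of inflammatory mRNAs (1.07, adjusted p = 5.59e-05). The median over the list was 0.34, against 0.02 over all genes tested. Adjusted p with edgeR was 0.0944, 0.0454 and 0.0143 for the 3 genes. The DESeq2 call of Maff was lost without Aged Sham 13 or 14 or Young Sham 21 or 22, and that of Socs3 without Aged Sham 14.

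In Young Bleo against Young Sham the list divided, with 8 called higher and 5 lower and a median of -0.06, where 13.9% of all genes were called and 7.57% were called higher. EdgeR called 5 higher and 3 lower. Of the macrophage markers 7 of 9 were called higher in this comparison, and their part in the list genes that rose was not tested. The highest were Gadd45g, a stress sensor upstream of p38 (log2 fold change 2.00, DESeq2 adjusted p = 1.81e-07), Socs3 (1.95, adjusted p = 4.93e-10) and Btg1, an anti-proliferative gene (1.83, adjusted p = 3.34e-06). The lowest were the kinase gene Plk3 (-0.97, adjusted p = 0.0207), Klf10 (-0.94, adjusted p = 0.00193) and Klf2, a factor induced by laminar flow in ECs (-0.78, adjusted p = 0.00608). In this comparison the endothelial sum was lower (1571 to 2041, against 2360 to 2607) and 2 of 6 pericyte and smooth muscle markers were called lower, and their part in the lower genes was not tested. Of these 6, edgeR did not call Plk3 (adjusted p = 0.0653), whose DESeq2 call was also lost without Young Bleo 18 or 19 or Young Sham 24 or 25. Nr4a and Egr family members of the list were not among the called genes.

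In Aged Bleo against Young Sham 8 were called higher and 1 lower (7 and 0 by edgeR), with a median of 0.23, where 9.73% of all genes were called and 6.58% were called higher. Socs3 rose by 2.42 (adjusted p = 1.84e-15), Ier3, an early gene linked to survival, by 2.36 (adjusted p = 4.78e-07) and Gadd45g by 1.75 (adjusted p = 9.22e-06), all by DESeq2 and all called by edgeR. Klf10 was lower (-0.71, adjusted p = 0.0374; edgeR adjusted p = 0.0947), with the call kept in 9 of the 16 fits without 1 library. Ier3 had normalized counts of 59298 and 69534 in Aged Bleo replicates 1 and 2, the libraries with the highest macrophage sums (1558 and 878), and 15870 and 13462 in replicates 3 and 5. Against Aged Sham 2 were called higher in Aged Bleo, Myc (1.51, adjusted p = 0.0236) and Socs3 (1.15, adjusted p = 0.00795), and 2 lower, Nfkbia (-0.59, adjusted p = 0.0235) and Klf6 (-0.56, adjusted p = 0.0262). None of these 4 was called by edgeR (adjusted p from 0.0707 to 0.114), each lost its DESeq2 call in 2 to 4 of the 16 fits without 1 library, and 5.85% of all genes were called here by DESeq2. In this comparison 7 of 9 macrophage markers were called higher and 5 of 6 platelet markers lower, and their part was not tested. Socs3 was highest in Aged Bleo replicate 1 (10817 normalized counts, against 5955 to 6981 in the other 3), the library with the highest macrophage sum. Between the injured groups 0 of 41 was called by DESeq2 or edgeR (7 and 6 at an unadjusted p under 0.05). Over all genes 0.99% were called there by DESeq2 and 0.0437% by edgeR.

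**Figure D5:**
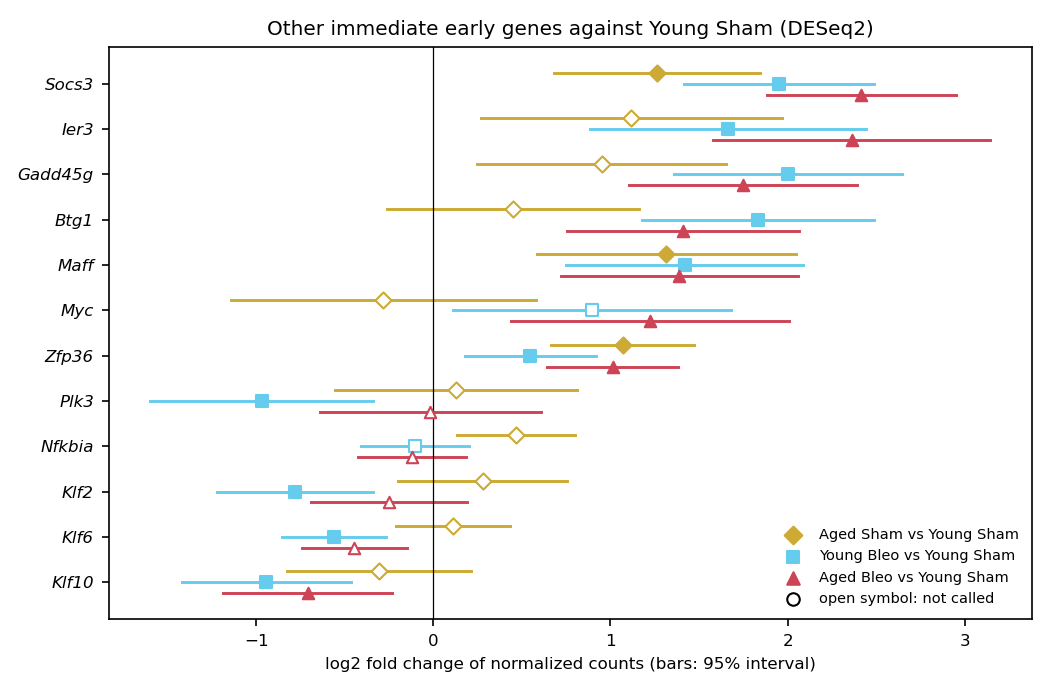
Log2 fold change against Young Sham of the 12 other immediate early genes that the naming rule gave; bars are 95% intervals and filled symbols are called. By DESeq2, Socs3, Maff and Zfp36 are called in all 3 comparisons, and Plk3, Klf2 and Klf6 are called lower in Young Bleo and not called in the other 2. EdgeR did not call Maff in Aged Sham (adjusted p = 0.0944), or Zfp36 (0.0575) and Plk3 (0.0653) in Young Bleo. Klf6 in Aged Bleo had a DESeq2 adjusted p of 0.0343 and missed only the fold threshold (-0.445).

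The genes around the members were read in the same way. Over all genes the called share was 3.36% in Aged Sham, 13.9% in Young Bleo and 9.73% in Aged Bleo, each against Young Sham, and the counts of these short lists are to be read against it. Of 19 other AP-1 and ATF factors, 3 were called higher in Aged Sham against Young Sham: Atf5 (log2 fold change 1.42, adjusted p = 0.00806; edgeR adjusted p = 0.0905), Maff, and Jdp2, a repressor of AP-1 (0.94, adjusted p = 0.000187; edgeR adjusted p = 0.0213). In Young Bleo 4 were called higher (2 by edgeR) and 0 lower, and in Aged Bleo against Young Sham 2 higher (1 by edgeR) and 1 lower, Atf7 (-0.65, adjusted p = 0.00457), which edgeR also called. Of 11 other MAP kinase phosphatases, 1 was called higher with age by DESeq2 (Dusp3) and 0 by edgeR. Dusp2 and Dusp6, which act on ERK, were called higher than in Young Sham in both bleomycin groups. Dusp2 rose by 2.29 in Young Bleo (adjusted p = 2.28e-08) and 1.75 in Aged Bleo (adjusted p = 4.91e-05), and Dusp6 by 1.29 in Young Bleo (adjusted p = 0.00282), with an adjusted p of 0.000463 in Aged Bleo. Macrophage markers were called higher in the same comparisons (7 of 9 in Young Bleo and 8 of 9 in Aged Bleo), and their part in the AP-1, phosphatase, kinase and chaperone genes that rose there was not tested. Dusp10, Dusp8 and Dusp16 were called lower in Young Bleo, at -1.28, -1.15 and -0.80, so that 5 of 11 were called there by DESeq2 and 3 by edgeR. There the endothelial sum was lower (1571 to 2041, against 2360 to 2607), with 2 of 10 markers called each way. Of 6 pericyte and smooth muscle markers 2 were called lower. The part of either in the lower phosphatases was not tested. EdgeR did not call Dusp10 (adjusted p = 0.0628) or Dusp16 (adjusted p = 0.0521), and both lost the DESeq2 call in some fits without 1 library (Dusp10 without Young Bleo 17 or 19, Dusp16 without Young Bleo 17 or 18 or Young Sham 24). In that comparison Dusp1 itself was not called (-0.23, adjusted p = 0.651).

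Of 20 kinases and factors upstream, 0 was called with age by DESeq2 or edgeR, and 2 had an unadjusted p under 0.05 in each. In Young Bleo, Crem (1.02, adjusted p = 0.00264), a CREB family factor, and Mkl2 (0.86, adjusted p = 0.00248), a cofactor of serum response factor, were called higher, and Rps6ka1 (-1.25, adjusted p = 0.0133) and Mapk9 (-0.68, adjusted p = 0.000286) lower. The endothelial sum and 2 of 6 pericyte and smooth muscle markers were lower there too. Their part in the lower kinases was not tested. EdgeR did not call Rps6ka1 (adjusted p = 0.0632), and its DESeq2 call was lost without Young Bleo 17, 18 or 19. Crem was also called higher in Aged Bleo against Young Sham (0.83, adjusted p = 0.0258). Against Aged Sham, Mkl2 (0.80, adjusted p = 0.0385) and Elk3 (0.52, adjusted p = 0.0116) were called higher in Aged Bleo, as 5.85% of all genes were called. Against Young Bleo, Mapk9 was (0.57, adjusted p = 0.0431), where 0.99% were called. EdgeR made none of these Aged Bleo calls (adjusted p from 0.0608 to 0.277). Of 29 other chaperones and co-chaperones, 1 was called with age, Serpinh1, a collagen chaperone (-1.03, adjusted p = 4.07e-05), a share of the list close to that of all genes. Hspb8, a small heat shock protein, rose by 3.42 in Young Bleo (adjusted p = 6.39e-07) and 3.12 in Aged Bleo (adjusted p = 8.28e-06) against Young Sham. Its normalized counts were 414 to 1461 in Young Bleo and 90.0 to 1473 in Aged Bleo, where the lowest library lay within the Young Sham range of 35.2 to 127. Dnajb4 (-1.48, adjusted p = 0.000226) and Cryab (-0.92, adjusted p = 0.0445) were called lower in Young Bleo, and Hspb7 in Aged Bleo (-2.61, adjusted p = 0.000207). In all, 3 of 29 were called in Young Bleo and 2 of 29 in Aged Bleo, below the shares over all genes. Of these, edgeR did not call Cryab (adjusted p = 0.0954), and its DESeq2 call was kept in 9 of the 16 fits without 1 library. Hspb7 was not called in Aged Sham (0.17) or Young Bleo (-0.04) against Young Sham. In Aged Bleo it was also called lower against Aged Sham (-2.78, DESeq2 adjusted p = 0.00144) and Young Bleo (-2.57, DESeq2 adjusted p = 0.00494). EdgeR made neither call (adjusted p = 0.0666 and 0.247). Pericyte and smooth muscle markers were called lower too, with 2 of 6 in Aged Sham, 2 of 6 in Young Bleo and 6 of 6 in Aged Bleo, each against Young Sham. Their sum in Aged Bleo (at most 17.6) lay below all Young Sham libraries (at least 40.1). Of 6 fibroblast markers 4 were called lower in Aged Bleo. The part of these cells in the lower chaperones was not tested. The median over the chaperone list lay between -0.03 and 0.08 in the 5 pairwise comparisons.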

How the data were processed

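RNA was measured in 16 libraries, 1 per mouse sample. The authors aligned paired-end reads to mm10 with STAR (2.5.2b in the submitters' processing notes) and counted them per gene with Subread, and deposited raw counts and FPKM per gene. The labels name SMART-Seq and Nextera kits while the study's methods name TruSeq with poly(A) enrichment, the annotation release and strand setting are not given in the sources used here, and overlapping or near-identical genes are therefore uncertain. All 37 mitochondrial gene rows held 0 counts.

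Here the deposited counts were tested with DESeq2 1.42.0 (R 4.3.3, Wald test, unshrunken, all 16 libraries in 1 fit with group as the only term), and edgeR 4.0.16 quasi-likelihood values are printed beside calls of members. Counts were also simulated for the same libraries, with spreads estimated by edgeR, and tested for Young Bleo against Young Sham. There DESeq2 made more false calls than its nominal rate allows and more than edgeR. The simulated spreads came from edgeR's own model, so they cannot rank the tools. Calls by DESeq2 alone are treated here as less firm. The members and lists were chosen with earlier results of these data known. From each list and comparison the text names at most the 3 highest and 3 lowest called genes whose normalized counts averaged 50 or more, and likeness was measured on log2 counts for the 5 most similar genes. Alternatives were TMM scaling, a filter of 10 counts in 3 libraries, only the groups compared, limma voom (limma 3.58.1), limma-trend on log2(FPKM + 0.1) and log2(FPKM + 1), edgeR, and leaving out each library. Gene positions come from the deposited table (mm10). RNA libraries of individual mice give p-values that measure the spread between mice.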

Additional observations from a re-analysis of the deposited data

Results flagged for a closer look

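A library far from the rest of its group was looked for in 30 groups of 4 or 5 libraries, and 3 were found. Chance flags about 1 in 20 such groups. Aged Sham, with 3 libraries, was not among them, so Dusp1 in Aged Sham replicate 14 (116206) could not be flagged. Fosb in Young Bleo replicate 20 had a normalized count of 747, with the other 3 libraries between 443 and 452. Junb in Aged Bleo replicate 2 had a normalized count of 9996, below 15389 to 16121 in the other 3, and Ier2 in Young Sham replicate 22 had 11697, below 14841 to 15338 in the other 4. Aged Bleo replicate 2 was below its group mean for all 8 immediate early members.

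The response of Fos to bleomycin differed between ages by -1.65 on the log2 scale (aged minus young, DESeq2 adjusted p = 0.0324, edgeR adjusted p = 0.352). The DESeq2 call was kept in 7 of the 16 fits without 1 library. The log2 fold change was 1.89 in young mice (Fos higher in 4 of 4 Young Bleo libraries than in any Young Sham library) and 0.24 in aged mice. Fos was already higher in Aged Sham than in Young Sham by 2.15, and the difference of 0.49 between Aged Bleo and Young Bleo was not called.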

How the results depend on the processing

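The higher Fos, Fosb and Junb against Young Sham were called in every fit that left out 1 library. Over all alternatives, 1326 of 1382 member values kept their side of the threshold, 24 of them uncalled values whose sign changed, while 44 lost a call, 12 gained one and 0 called values reversed. Member calls in Aged Sham against Young Sham numbered 5 by DESeq2, 3 by limma voom, and 2 (Fos and Fosb) by limma-trend with either FPKM pseudocount. With only the groups compared, Jun was called as well in Young Bleo against Young Sham (4 members), and in Aged Bleo against Aged Sham the call of Dusp1 gave way to one of Hspa1a. In Aged Bleo against Aged Sham, and for the difference of responses, the 1 call became 0 with edgeR, voom and both FPKM fits. Leaving out 1 library gave 3 to 5, 3 to 4, 3 to 5, 0 to 2, 0 to 1 and 0 to 1 member calls in the order Aged Sham, Young Bleo and Aged Bleo against Young Sham, Aged Bleo against Aged Sham, Aged Bleo against Young Bleo, and the difference of responses.

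Genes called over the whole table, in that order, numbered 622, 2578, 1801, 1083, 188 and 77 by DESeq2. EdgeR called 158, 1793, 1043, 146, 8 and 1, and voom 104, 1736, 1120, 53, 29 and 1. Limma-trend called 162, 2002, 1173, 363, 45 and 0 on log2(FPKM + 0.1), and 143, 1414, 834, 216, 50 and 2 on log2(FPKM + 1). With only the groups compared, Aged Bleo against Aged Sham gave 645. Leaving out 1 library gave 370 to 691, 1807 to 3339, 1048 to 2274, 474 to 1492, 109 to 469 and 37 to 226. The cause was not tested. No paired analysis was possible because the replicate numbers in the labels do not repeat between groups. With 3 to 5 mice a group, the 95% interval for Egr1 or Jun spans more than 1 log2 unit.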
